A study of Mus musculus with 6 samples.

Results

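The Hox cluster genes were read on these arrays by 35 probes for 34 genes, out of 18069 genes with a probe of a single symbol. The arrays held 34967 transcript probes, of which 21615 carried a single gene symbol. Members were taken by name alone. They are the probes whose only annotated symbol was Hox followed by a cluster letter (a to d) and a paralog number. No measured value entered that rule, but the members were chosen with earlier results of these data known. Hox genes without a probe of 1 symbol were not analysed here. Hoxd13 had 2 probes and every other member had 1, so for nearly all genes no second probe checks the value.

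The data are transcript levels of 6 mouse embryonic fibroblast cultures at early passage, 1 embryo per culture and 1 CodeLink array (1 colour, whole genome) per culture. The Ing1-deficient cultures C4, C3 and B1 came from embryos with a gene trap cassette in the Ing1 locus, and the wild types, H2, H3 and I2, came from embryos that the series calls littermates. Ing1 encodes a reader of a histone mark that acts with Sin3 and histone deacetylase complexes, and the comparison asks which transcripts respond to its loss. The labels used here give neither strain, embryonic age nor sex, and do not say which part of the embryo the cells were taken from. The Ing1 probe read 1.38, 0.93 and 1.39 in C4, C3 and B1 against 11.7, 11.4 and 11.1 in H2, H3 and I2, in units of each array's median transcript probe. The genotypes were therefore well apart at the targeted gene (9.4-fold, limma adjusted p = 0.000286). All 6 of its spots carried a good quality flag, and the labels do not place the probe relative to the cassette.

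Good flags covered 55.5% to 62.1% of transcript probes per array, and 105 to 177 spots per array were masked. All 10 fibroblast markers were detected, with a summed level of 996 to 1090 in deficient and 880 to 1080 in wild-type cultures, to which Fn1, Vim and Col3a1 gave the most. Their median difference was 0.35. Thy1, a surface marker, rose (0.89 ± 0.22, adjusted p = 0.0492; called in 0 of 6 fits with 1 array left out). Pdgfrb (0.50), Dcn (0.52) and the brighter Pdgfra probe (0.93) had an unadjusted limma p under 0.05 without passing, the other Pdgfra probe gave -0.70, and Col1a1 and Col3a1 gave 0.04 and 0.06. In a bulk culture, a change in the share of cells that express a gene and a change in RNA per cell cannot be told apart.

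Hox genes encode homeodomain transcription factors that give cells their address along the body axis and the limbs. In mammals they lie in 4 clusters, and genes at the same place in different clusters (paralogs) share a number. Low numbers mark the 3' end of a cluster and are used towards the head, high numbers the 5' end and are used towards the tail and the ends of the limbs. The proteins bind DNA together with TALE homeodomain partners of the PBX and MEIS families, retinoic acid induces the 3' genes in the embryo, and trithorax and Polycomb complexes keep the clusters on or off. Fibroblasts are known to keep in culture much of the Hox pattern of the site they came from.

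Most of the family was expressed above background. A good flag on all 6 arrays was found for 25 of the 35 probes (71.4%), against 43.0% of all transcript probes, and 5 probes (14.3%) had no good flag on any array, against 29.7%. All probes of HoxB but that of Hoxb1 were read on all 6 arrays, 9 of 10 in all. HoxC was read nearly throughout, with 6 of 7 probes at 6 good flags and Hoxc4 at 5, its H2 spot being flagged irregular. HoxA split, with 6 of 10 probes read on all arrays, Hoxa11 on 5, Hoxa4 on I2 only, and Hoxa6 and Hoxa13 on none. HoxD had 4 of 8 probes on all arrays, namely those of Hoxd1, Hoxd8, Hoxd10 and Hoxd11. Hoxd3 was read on 4 arrays, Hoxd9 on none, and the Hoxd13 probes on 2 and 0.

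The 5 probes without a good flag were dim in both genotypes. Hoxa13, a gene of the digits and hindgut, lay between -0.0417 and 0.24 over the 6 arrays, and Hoxa6 between 0.0713 and 0.471. Hoxb1, a hindbrain gene, lay between 0.0865 and 0.539. Negative control spots reached 0.3 to 0.397 at their 95th percentile, depending on the array, so most of these values lay within what a spot without a target gave. Hoxd9 read 0.23, 0.402 and 0.239 in deficient and 0.111, -0.07 and 0.2 in wild-type cultures. The deficient values were the higher ones, but all 6 spots were flagged low and the gene gets no fold. A signal below background is a bound for that probe and does not show that the gene was off. Since probes differ in how strongly they bind, levels were not compared between genes.

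**Figure D1:**
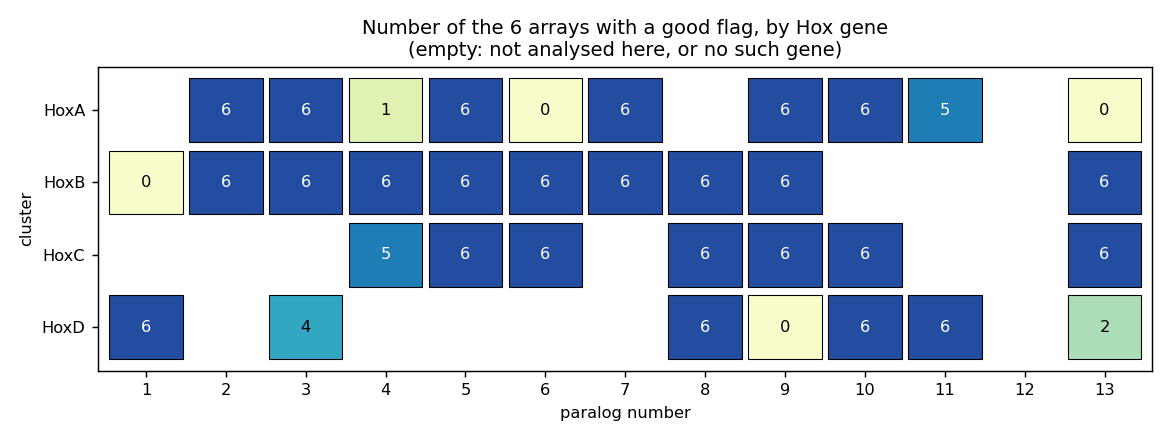
Each square is a Hox gene, placed by cluster (rows) and paralog number (columns), and the number in it is how many of the 6 arrays gave its probe a good flag (the better of the 2 probes for Hoxd13). The HoxB and HoxC rows are filled with 6 apart from Hoxb1 at 0 and Hoxc4 at 5, while HoxA and HoxD contain genes at 0 to 5.

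Of the 35 probes, 27, each of a different gene, were tested because 1 genotype or both had good flags throughout. The deficient cells had more Hoxc9 and more Hoxa11 transcript, and no tested Hox gene was called lower. Those 2 of 27 (7.41%) compare with 6.57% of all 19575 tested probes called in either direction, and with 4.94% called higher, so the share of Hox genes called was close to the background. Over the 27 probes the median log2 difference, deficient minus wild type, was 0.05, against 0.02 over all tested probes. By sign, 16 of the 27 differences (59.3%) were positive, against 51.9% of all tested probes, and under quantile normalization 13 were. At an unadjusted limma p under 0.05 there were 9 Hox probes (33.3%, background 26.2%), 8 higher and 1 lower. The values of the 3 deficient arrays did not overlap those of the 3 wild-type arrays for 12 probes (44.4%, background 31.2%), with 9 above and 3 below wild type.

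The intervals also bound what was not called. For 20 of the 27 Hox probes the 95% interval of the difference lay inside a 2-fold change in either direction, as it did for 79.4% of all tested probes. These intervals are per probe and not adjusted for the number of probes.

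**Figure D2:**
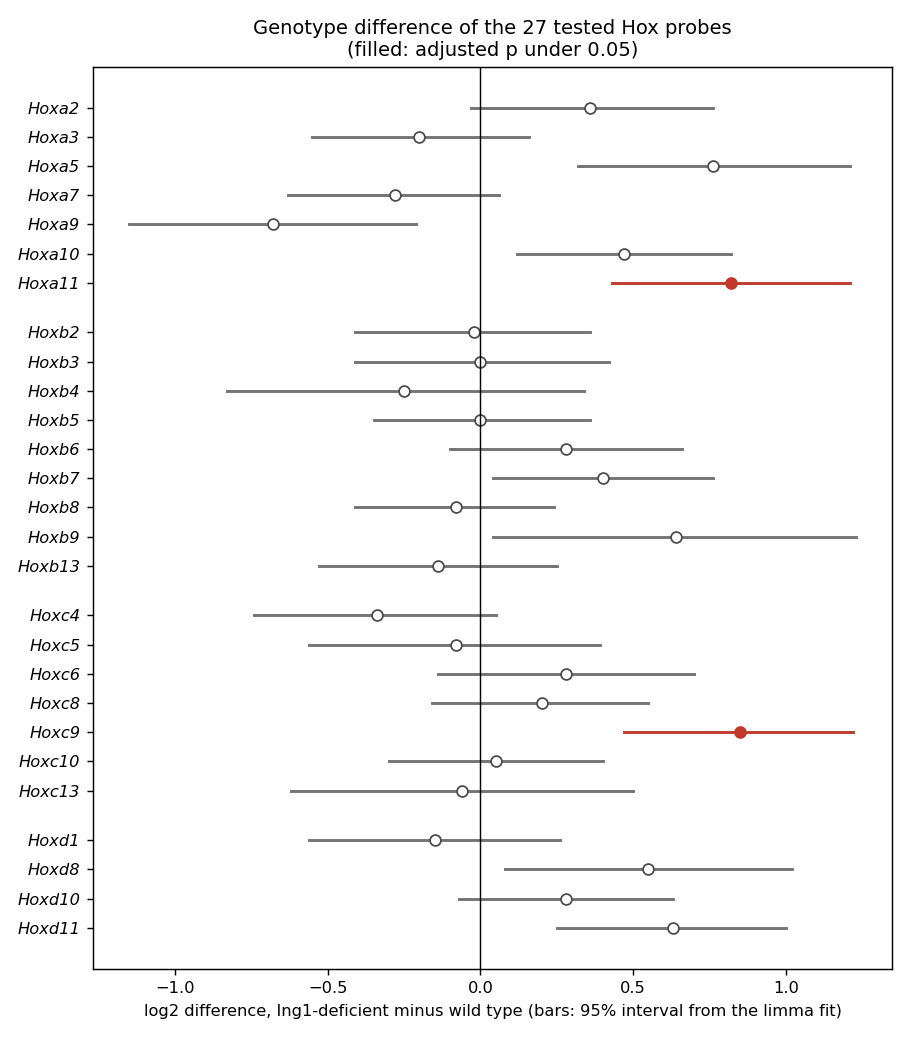
Points are log2 differences of the 27 tested Hox probes (horizontal axis, deficient minus wild type), listed by cluster and paralog number, with 95% intervals from the limma fit and filled points for an adjusted p under 0.05. Hoxc9 at 0.85 and Hoxa11 at 0.82 are the filled points, and Hoxa9 at -0.68 lies farthest to the other side.

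Hoxc9, a gene of the thoracic trunk and spinal cord, rose in all 3 deficient cultures. Its probe (GE34579) read 4.68, 3.8 and 4.95 in C4, C3 and B1, against 2.24, 2.67 and 2.53 in H2, H3 and I2. The lowest deficient value was above the highest wild-type value. The means were 4.48 ± 0.599 and 2.48 ± 0.224 (SD, n = 3 each), and the log2 difference was 0.85 ± 0.17 (SE), a 1.8-fold rise with a limma adjusted p of 0.0307. The call held when C3 or H3 was left out (adjusted p = 0.043 and 0.0213) and was lost without C4 (0.0893), B1 (0.113), H2 (0.129) or I2 (0.139), while the difference stayed between 0.77 and 0.96. With normexp background correction, which adds an offset and so shrinks ratios of dim spots, the difference was 0.45 (adjusted p = 0.0465).

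No other tested HoxC gene passed. Hoxc8 read 12.5, 10.9 and 12 in deficient and 11.8, 9.7 and 9.53 in wild-type arrays, and Hoxc10, on the far side of Hoxc9, read 5.32, 5.48 and 5.94 against 6.03, 4.82 and 5.4. So the genes on each side of Hoxc9 overlapped between the genotypes, with differences of 0.20 (interval -0.16 to 0.55) and 0.05 (-0.30 to 0.40). Hoxc6 gave 0.28 ± 0.18 (0.14 without H2), Hoxc5 -0.08 ± 0.21 and Hoxc13 -0.06 ± 0.25. Hoxc4, at the 3' end, was lower in every deficient array (1.67, 2.38 and 2.23) than in any wild-type array (2.55, 2.56 and 2.76), but its difference of -0.34 ± 0.17 did not pass (adjusted p = 0.251) and was -0.19 without C4. Hoxc13 varied more within a genotype than between them, with 3.11 in C4 and 3.43 in H2 against 4.88 to 5.37 in the other arrays.

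HoxA held the largest spread of differences, in both directions. Hoxa11, which patterns the forearm and lower leg and the uterus, read 2.3, 3.3 and 2.82 in C4, C3 and B1, against 1.63, 1.63 and 1.48 in H2, H3 and I2. Its wild-type values were tightly grouped and all lay below the deficient ones. The means were 2.81 ± 0.497 and 1.58 ± 0.0872 (SD, n = 3 each), and the log2 difference was 0.82 ± 0.17 (probe GE35560, 1.76-fold, limma adjusted p = 0.0334). The B1 spot was flagged irregular. Left out in turn, only H3 left the call standing (adjusted p = 0.0332), and the adjusted p was 0.0739 without C4, 0.0786 without C3, 0.117 without B1, 0.131 without H2 and 0.153 without I2, with differences between 0.69 and 0.95. With normexp correction the difference was 0.36 and did not pass (adjusted p = 0.0796).

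Hoxa5, a gene of the lung, neck and anterior trunk, read 36.6, 24.9 and 34.1 in C4, C3 and B1, against 19.1, 21.2 and 15.7 in H2, H3 and I2. Every deficient value was above every wild-type value, and C3 stood nearest to the wild-type range. The difference of 0.76 ± 0.20 narrowly missed the threshold (adjusted p = 0.0537) and passed without H3 (0.86, adjusted p = 0.0402) and with normexp correction (0.62, adjusted p = 0.0456). With only probes good on all 6 arrays its limma adjusted p was 0.0444, and with a variance trend and robust fit 0.037. It did not pass with quantile (0.0898) or cyclic loess normalization (0.0854). Hoxa10, a gene of the lumbar spine, thigh and uterus, read 5.92, 6.19 and 6.7 against 4.24, 5.15 and 4.25. Its difference was 0.47 ± 0.16 (adjusted p = 0.1), again with no overlap.

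Between those genes in the cluster, Hoxa7 and Hoxa9 had the opposite sign. Hoxa9, a gene of the lumbar trunk and upper limb that is also known in blood stem cells, read 0.878, 1.48 and 1.25 in C4, C3 and B1 and 2.1, 1.74 and 1.83 in H2, H3 and I2. All deficient values were lower, C4 lowest of all, and the difference of -0.68 ± 0.21 did not pass (adjusted p = 0.082). It was -0.47 without C4 and -0.85 without C3. Hoxa7 read 3.21, 3.92 and 3.61 against 4.44, 4.49 and 4.09, a smaller difference (-0.28 ± 0.15, adjusted p = 0.272), also without overlap. At the 3' end Hoxa2, a gene of the hindbrain and branchial arches, read 2.95, 2.35 and 2.35 against 1.9, 2.31 and 1.75 (0.36 ± 0.18, adjusted p = 0.228). Hoxa3 overlapped between the genotypes (-0.20 ± 0.16, adjusted p = 0.474). Along the HoxA cluster 6 of 7 tested genes thus had separate genotype ranges, 4 higher and 2 lower in deficient cells, and 1 of the 7 was called. Over all tested probes the ranges were separate for 31.2% (20% higher, 11.2% lower) and 6.57% were called.

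The stretches just before the start sites of 3 HoxA genes are shown because these genes share a cluster and a strand and had differences of similar size but not of the same sign: 0.76 for Hoxa5, -0.68 for Hoxa9 and 0.82 for Hoxa11. They are the 250 bases upstream of the RefSeq start on the minus strand of GRCm38.p6, at chr6:52204588-52204837, chr6:52227371-52227620 and chr6:52245811-52246060, written 5′ to 3′ with CG dinucleotides in capitals.
Hoxa5: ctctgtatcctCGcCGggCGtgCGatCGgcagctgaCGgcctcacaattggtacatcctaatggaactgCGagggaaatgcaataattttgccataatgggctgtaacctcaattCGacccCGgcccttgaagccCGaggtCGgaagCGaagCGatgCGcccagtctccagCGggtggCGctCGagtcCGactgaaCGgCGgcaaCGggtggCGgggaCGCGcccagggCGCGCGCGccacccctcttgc
Hoxa9: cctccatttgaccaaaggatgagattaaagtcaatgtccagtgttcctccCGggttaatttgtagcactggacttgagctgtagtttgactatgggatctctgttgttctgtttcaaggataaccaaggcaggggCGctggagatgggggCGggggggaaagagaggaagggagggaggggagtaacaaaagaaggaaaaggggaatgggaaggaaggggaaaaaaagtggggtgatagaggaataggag
Hoxa11: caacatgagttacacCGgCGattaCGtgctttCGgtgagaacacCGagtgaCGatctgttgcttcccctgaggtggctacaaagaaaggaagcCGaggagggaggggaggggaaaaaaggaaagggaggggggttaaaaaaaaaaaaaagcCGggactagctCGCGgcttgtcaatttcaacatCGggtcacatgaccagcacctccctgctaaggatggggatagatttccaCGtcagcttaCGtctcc
The Hoxa5 window held 28 CG dinucleotides at 63.6% G and C, the Hoxa11 window 13 at 52.0%, and the Hoxa9 window 3 at 49.6%. RefSeq promoter windows were found for 20 of the 34 member genes, 22 windows in all, with a median of 13 CG dinucleotides against 6 over all 32851 windows. The letters TGATNNAT, read on both strands as a composite site of PBX and HOX proteins, were present in 4 of the 22 windows (18.2%) and in 7.68% of all windows. The letters AGGTCA, a core element bound by nuclear receptors, were present in 5 of 22 (22.7%) and in 14% of all windows. Neither was found in the windows shown, which says only that these letters are not in them.

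In HoxD no gene was called, and Hoxd8, Hoxd10 and Hoxd11 had positive differences. Hoxd11, which works with Hoxa11 in the forearm, read 6.8, 7.26 and 9.1 in C4, C3 and B1, against 5.38, 4.73 and 4.79 in H2, H3 and I2. The ranges did not overlap, and the difference of 0.63 ± 0.17 was just short of the threshold (adjusted p = 0.0572). It passed in 0 of 6 fits with 1 array left out. With only probes good on all 6 arrays its limma adjusted p was 0.0484, and with a variance trend and robust fit 0.0419. Hoxd8 read 8.47, 9.8 and 9.49 against 4.85, 8.38 and 6.2. Here the wild-type H3 value nearly reached the lowest deficient value, and the difference of 0.55 ± 0.21 (adjusted p = 0.138) was 0.75 without H3 (adjusted p = 0.0349) and 0.36 without H2. Hoxd10 read 3.16, 3.24 and 3.35 against 2.87, 2.33 and 2.86, also without overlap (0.28 ± 0.15, adjusted p = 0.283). Hoxd1, at the 3' end, was alike in 5 arrays, at 1.07 to 1.12, and lower in B1 at 0.773 (-0.15 ± 0.18). Of the 4 tested HoxD genes 2 had an unadjusted limma p under 0.05, and 0 were called. The shares over all tested probes were 26.2% and 6.57%, respectively.

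HoxB had the highest share of probes read on all arrays, and its median difference lay nearest to 0. Over 9 tested genes it was 0.00, limma called 0, and 2 had an unadjusted p under 0.05. Among all tested probes, 6.57% were called and 26.2% had such a p. Hoxb3, a gene of the hindbrain and neck, read 11.7, 12 and 9.2 in deficient and 12.7, 9.19 and 11 in wild-type arrays. Hoxb5, a gene of the neck and forelimb level, read 9.39, 9.4 and 8.29 against 10.3, 8.29 and 8.47. For both the difference was 0.00, with intervals of -0.41 to 0.42 and -0.35 to 0.36. Hoxb8, a gene of the trunk and of microglia, was nearly flat at 1.31 to 1.55 over all 6 arrays.

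The exceptions in HoxB were Hoxb7 and Hoxb9. Hoxb7 read 4.83, 5.96 and 6.36 against 4.44, 4.38 and 4.11, the HoxB gene with separate ranges (0.40 ± 0.16, adjusted p = 0.157). Hoxb9, a thoracic gene, read 1.92, 3.26 and 3.37 in C4, C3 and B1 against 1.73, 2.32 and 1.4 in H2, H3 and I2. C3 and B1 stood above all wild-type arrays, but C4 lay below H3, and the difference of 0.64 ± 0.26 did not pass (adjusted p = 0.164). Hoxb6 gave 0.28 ± 0.17, Hoxb2 -0.02 ± 0.17, Hoxb13 -0.14 ± 0.17 and Hoxb4 -0.25 ± 0.26, and none of these 4 passed. The Hoxb4 value follows H3, which read 1.56 where the other 5 arrays read 0.741 to 1.07.

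**Figure D3:**
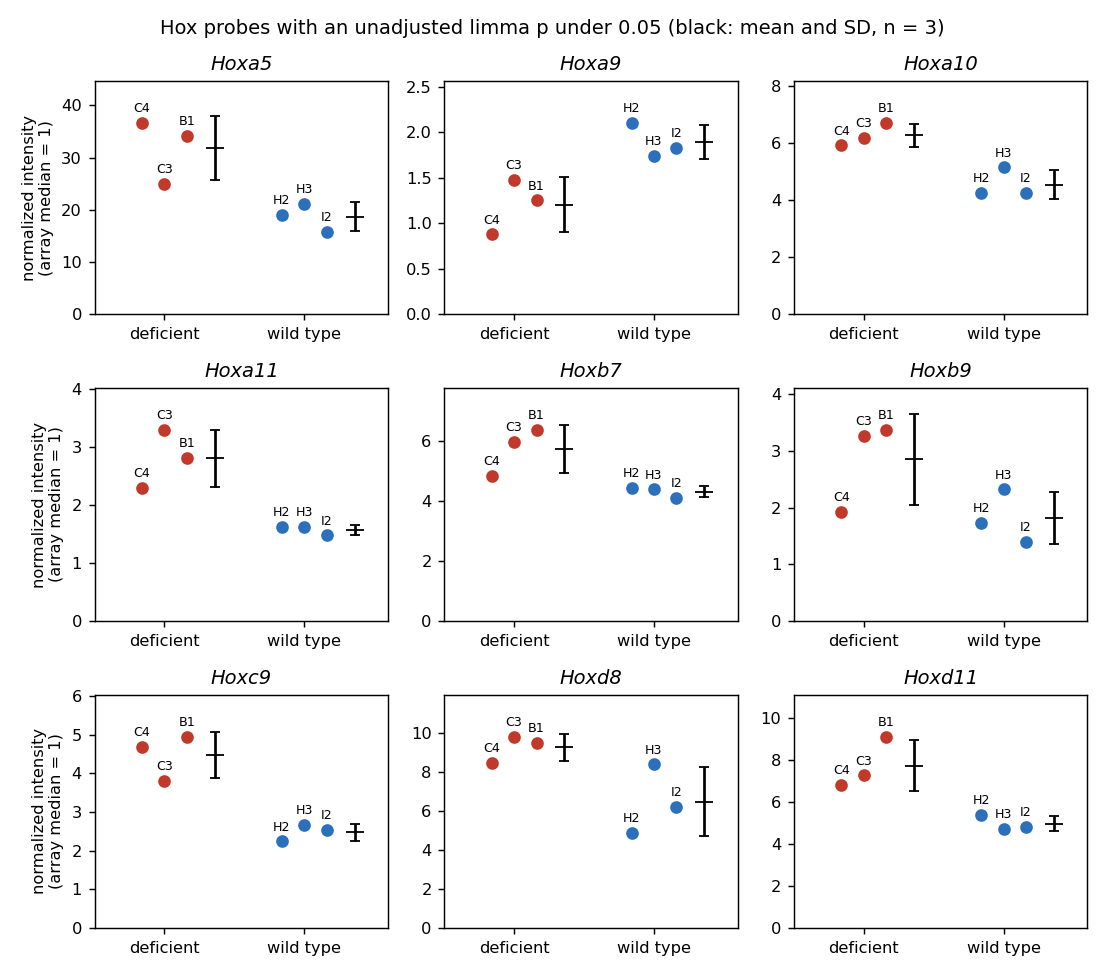
Each panel plots normalized intensity (array median = 1) of a Hox gene with an unadjusted limma p under 0.05 for the 3 deficient cultures (red) and the 3 wild-type cultures (blue), with mean and SD in black. The ranges are separate in 8 of the 9 panels, Hoxb9 being the exception, and Hoxa9 is the panel with lower deficient values.

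With the paralog numbers put in 3 sets, the median difference was negative for the lowest set and positive for the others. Single numbers did not all follow, with a median of 0.17 for number 2 and -0.1 for number 13. Paralogs 1 to 4 had a median of -0.15 over 7 tested genes, with 2 positive and 5 negative, and all 7 intervals spanned 0. Paralogs 5 to 8 had a median of 0.24 over 10 genes (7 positive), and paralogs 9 to 13 a median of 0.37 over 10 genes (7 positive). Both tested genes of group 13, the most 5' of all, were negative (Hoxb13 at -0.14 and Hoxc13 at -0.06). At an unadjusted limma p under 0.05 there were 0, 3 and 6 genes in these 3 sets, and limma called 0, 0 and 2 after adjustment. The shares over all tested probes were 26.2% and 6.57%. The 3 sets were chosen with earlier results of these data known, so these counts are a description. Some paralogs differed in sign and others shared it. In group 9, Hoxb9 (0.64) and Hoxc9 (0.85) were positive and Hoxa9 (-0.68) negative, and in group 7 Hoxb7 was positive (0.40) and Hoxa7 negative (-0.28). In group 11 both tested genes were positive (Hoxa11 at 0.82 and Hoxd11 at 0.63), as were the 3 of group 10 (0.05 to 0.47).

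Across arrays the family moved little as a whole. The 27 tested probes lay a median of 0.06, 0.07 and 0.12 above their own means in C4, C3 and B1 and -0.03, -0.04 and -0.07 in H2, H3 and I2, on the log2 scale. Over all tested probes these medians were 0.06, 0.01 and 0.01 in C4, C3 and B1 and 0.05, -0.07 and 0 in H2, H3 and I2. For paralogs 9 to 13 the same measure was 0.06, 0.21 and 0.26 in C4, C3 and B1 and -0.26, -0.12 and -0.23 in H2, H3 and I2. The median SD within a genotype was 0.19 for Hox probes and 0.22 for all tested probes. No deficient culture was highest throughout, since Hoxa5 was highest in C4, Hoxa11 in C3, and Hoxc9 and Hoxd11 in B1.

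**Figure D4:**
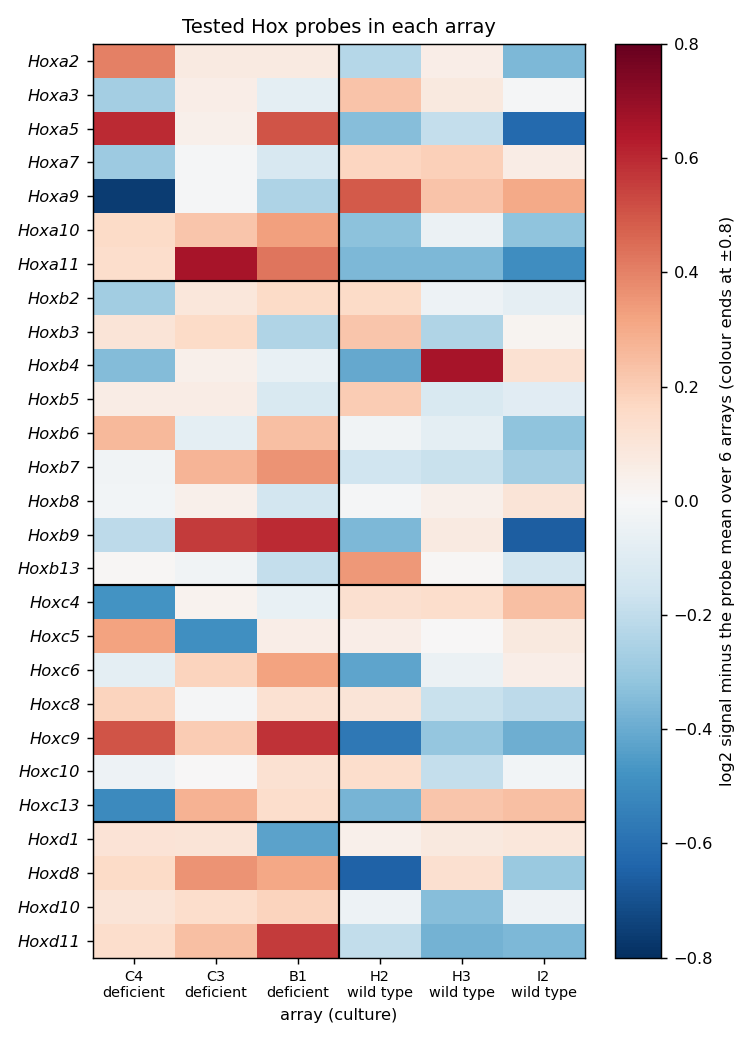
Rows are the 27 tested Hox probes by cluster, columns are the 6 arrays, and colour is the log2 signal minus that probe's mean over the 6 arrays (red above, blue below). Hoxc9, Hoxa11 and Hoxd11 are red in the 3 deficient columns and blue in the 3 wild-type columns, Hoxa9 is blue in C4 at -0.76 and red in the wild-type columns, and most HoxB rows are pale.

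Non-coding transcripts of the clusters were also on the arrays. Hotairm1, at the 3' end of HoxA, read 3.43, 2.53 and 3.33 in deficient and 2.58, 2.57 and 2.99 in wild-type arrays (0.18 ± 0.17), and Hottip, beyond its 5' end, gave 0.06 ± 0.18. Hoxb5os gave 0.32 ± 0.18, with 6.76, 5.47 and 7.82 against 5.85, 4.83 and 5.29. None of the 3 passed. Hotair, in HoxC, and Hoxaas3 were flagged low on every array. The methods do not say whether labelling kept the strand, so antisense and sense transcripts that overlap may share signal.

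Genes that flank the clusters were listed to see whether a difference reached beyond them. Of 10 tested neighbours limma called 0, 2 had an unadjusted p under 0.05, and their median was -0.05. The shares over all tested probes were 6.57% called and 26.2% at that p. Skap2, an adaptor gene beyond the 3' end of HoxA, read 4.26, 5.3 and 4.27 against 3.2, 3.37 and 3.4 (0.47 ± 0.16, adjusted p = 0.103). Mtx2, a mitochondrial import gene beyond HoxD, gave 0.39 ± 0.17 (adjusted p = 0.182). Evx1, a homeobox gene at the 5' end of HoxA, gave -0.48 ± 0.22 (adjusted p = 0.21).

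Of the TALE partners of Hox proteins, 8 of 11 were tested, limma called 0, and 3 had an unadjusted p under 0.05. Over all tested probes 6.57% were called and 26.2% had an unadjusted limma p under 0.05. The 3 partners were the MEIS genes, cofactors that join Hox and PBX proteins on DNA. Meis3 read 1.67, 2.09 and 1.86 against 0.942, 1.4 and 1.23 (0.67 ± 0.19, adjusted p = 0.0669), and Meis2 read 14.3, 8.12 and 11.1 against 6.54, 7.43 and 7.02 (0.64 ± 0.21, adjusted p = 0.1). Meis1 gave 0.56 ± 0.21 (adjusted p = 0.135), with its C3 value equal to that of H3 at 14.4. Pbx2 (-0.13), Pbx3 (-0.01) and Pknox1 (0.28) did not pass. Among the Cdx and ParaHox genes, relatives and activators of the Hox clusters, of which 5 were tested, limma called 0, 0 had an unadjusted p under 0.05, and the median was 0.00.

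In the retinoic acid pathway 2 of 12 tested genes fell and none rose, with a list median of -0.02, where 1.63% of all tested probes were called lower. Rxra, the partner of the retinoic acid receptors, fell with both of its probes. The brighter probe read 2.99, 2.31 and 2.34 in C4, C3 and B1 and 11.3, 4.25 and 8.48 in H2, H3 and I2 (-1.55 ± 0.32, adjusted p = 0.0324), and the other gave -1.46 ± 0.32 (adjusted p = 0.0361). The wild-type values spread widely, H3 lying nearest to the deficient ones. Crabp2, which carries retinoic acid to its receptor, read 35.8, 27.3 and 31.8 against 57.9, 45.3 and 65.7 (-0.82 ± 0.19, adjusted p = 0.0394). With 1 array left out, each of these 3 probes passed in 1 of 6 fits. Crabp1 had the opposite sign to Crabp2 and separate ranges, at 355, 321 and 276 against 219, 142 and 252. It did not pass (0.67 ± 0.23, adjusted p = 0.105). The synthesis genes Aldh1a2 (0.31 ± 0.20) and Rdh10 (0.33 ± 0.19) and the receptor genes Rara (-0.03), Rarb (0.19) and Rarg (-0.43) did not pass.

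Of 21 tested trithorax and Polycomb genes 1 rose and none fell, with a median of -0.02, where 4.94% of all tested probes were called higher. It was Phc2, a subunit of Polycomb repressive complex 1, at 16.3, 15.4 and 16.1 against 9.05, 10.1 and 8.56 (0.79 ± 0.15, adjusted p = 0.028), a call made in 1 of 6 fits with an array left out. Kmt2a, the trithorax methyltransferase gene that maintains Hox expression, gave 0.62 ± 0.22 (adjusted p = 0.123), and Ezh2, the Polycomb methyltransferase gene, -0.03 ± 0.24. Of 15 tested regional transcription factors 1 rose, against the same 4.94% over all tested probes, and the median was 0.02. En1, a homeobox gene of the ventral limb and of trunk skin fibroblasts, read 5.19, 6.72 and 5.01 against 2.66, 3.8 and 2.39 (0.95 ± 0.21, adjusted p = 0.0367), and it too passed in 1 of 6 such fits. Tbx5, which marks the forelimb, did not pass (0.19 ± 0.16, interval -0.17 to 0.54). Tbx4, the hindlimb counterpart, was flagged low on every deficient array and on H2.

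Markers of some other cell types differed between the same cultures. Of 10 macrophage markers 5 were tested and 3 rose, C1qa, C1qb and Mrc1, where 4.94% of all tested probes were called higher. With 1 array left out, C1qa passed in 0 of 6 fits, and C1qb and Mrc1 in 2 each. The summed level of the tested markers was 21.8 to 64.5 in deficient and 8.51 to 19.1 in wild-type cultures, highest in C3. Ptprc and Fcgr1 had no good flag on any array. Of 5 cartilage markers 2 were tested and 1 fell, where 1.63% of all tested probes were called lower. That was Col2a1 (-0.78, limma adjusted p = 0.048, called in 1 of 6 such fits). The other, Sox9, had the opposite sign and did not pass (0.39 ± 0.14, adjusted p = 0.127), with 0.8, 0.764 and 0.693 against 0.311, 0.417 and 0.575. The sums of both, mostly Col2a1, were 3 to 4.21 and 4.98 to 6.03, while Acan and Matn1 had no good flag. Of 4 tested neural markers 1 rose, against the 4.94% of all tested probes called higher. It was Tubb3 with its tested probe (0.81, limma adjusted p = 0.037, called in 1 of 6 such fits). The wild-type values of that probe, 0.565, 0.237 and 0.563, were all set to the floor of 0.57. Its difference ran from 0.04 to 1.24 over the other processing settings. The other Tubb3 probe was not tested and read 0.863, 0.481 and 0.71 against 0.258, 0.082 and 0.0586. Sox10 (-0.45 ± 0.34), Map2 (-0.35 ± 0.22) and Nes (0.29 ± 0.14) did not pass, and the neural list median was -0.03. The sums of the neural, skeletal muscle, endothelial and epithelial lists overlapped between the genotypes. The skeletal muscle sum was 110 in C4 and 29.6 to 55.5 in the other arrays. Of its 5 tested genes 0 were called, where 6.57% of all tested probes were, and the list median was 0.68. Des had separate ranges, at 8.35, 12.1 and 11.7 against 6.7, 6.49 and 6.67 (0.68 ± 0.18, limma adjusted p = 0.0571). Myog gave 1.1 ± 0.54, Myh3 0.97 ± 0.54, Actc1 0.25 ± 0.53 and Myod1 0.08 ± 0.47. In C3, where the macrophage sum was highest, Hoxa11 was at its highest and Hoxc9 at its lowest among the deficient cultures. The part of these markers in the Hox differences was not tested.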

How the data were processed

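Total RNA of 6 fibroblast cultures, 3 per genotype, was labelled with biotin and hybridised to 1-colour CodeLink arrays, per the labels. The authors quantified spots with CodeLink Expression Analysis 4.1.0.29054, per the file headers. The deposited intensity is linear: a spot's mean less its local background (median), scaled so that the array's median transcript probe is 1; the series value table holds the same values (217362 of 217362 equal within 1e-04). No genome build is named in the sources used here.

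Masked spots were treated as missing and 1260 control spots were left out. Values under 0.57, the median over arrays of the 1st percentile among good-flag probes, were set to 0.57 before log2, which understates differences of dim probes. The 19575 probes flagged good throughout 1 genotype or both were compared in limma 3.58.1 (lmFit and eBayes, two-sided, R 4.3.3). P-values were adjusted by Benjamini-Hochberg over all 19575 and called under 0.05. Each difference is deficient minus wild type, and ± beside it is the standard error (beside a mean, the SD), and 1 fit served all lists. Where a gene had several tested probes, the brightest stood for it. The fit was tested on simulated data. Symbols came from the platform annotation, updated by gene ID through RefSeq (21487 of 21615 matched), and promoter sequences from RefSeq (GRCm38.p6). Named were all Hox genes, and of the other lists the called members, or the 2 lowest p, with a few named for their role after their values were seen. The members and lists were chosen with earlier results of these data known. Any 2 arrays shared at most 0.03% equal values, so no array was a duplicate. The number of arrays limits the precision.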

Additional observations from a re-analysis of the deposited data

How the results depend on the processing

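The count of Hox genes called, 2 of 27, was the same with quantile or cyclic loess processing. Normexp also gave 2, but these were Hoxc9 and Hoxa5, and Hoxa11 did not pass (limma adjusted p = 0.0796). The series value table and averaging a gene's probes gave 2 as well. Little else was possible, since that table repeats the values and each tested Hox gene had 1 tested probe. The count was 0 with a floor of 0.01, 0 with a floor of 1.14 and 0 of 35 with no filter on flags. It was also 0 by the methods' t-test, both with its ratio limit and after adjustment. The ratio limit of 2 fixed the first of these, since the Hox log2 differences ran only from -0.68 to 0.85. At an unadjusted p under 0.05 without a ratio limit, the Hox counts were 8, 9, 9 and 8 of the same 27 probes. They are for the floors of 0.01 and 1.14, no filter on flags and the t-test. Over all probes the counts at that p were 4891, 4216, 4644 and 3926 in the same order. The count of 4644 is out of 34862 probes and the others are out of 19575. The reported fit had 5137 such probes (26.2%). The count of Hox genes called was 4 with a variance trend and robust fit and 13 with array weights. It was 18 with the leading letter of the culture name as a random block, and 0 to 4 with 1 array left out. With 1 array left out, 5 to 9 of the 27 Hox probes had an unadjusted p under 0.05. Over all probes 3599 to 6192 did, out of 19825 to 20574 tested. Of all tested probes 1286 were called. The count was 576 with normexp, 737 with quantile normalization, 749 with cyclic loess, 275 with a floor of 0.01, 191 with a floor of 1.14, 20 with no filter on flags, 8160 with array weights and 12901 with the letter block. It was 605 by the methods' t-test with its ratio limit, 7 by that test after adjustment, and 3 to 2610 with 1 array left out. Of the called probes 75.2% were higher in deficient cells, against 60.7% with quantile normalization, 65.7% with cyclic loess, 83.2% with a floor of 1.14, 55.1% with array weights and 55.7% with the letter block. The block's correlation was estimated at -0.89 and the weights, whose fit stopped before it converged, gave I2 13 against 0.335 to 1.94 elsewhere, so neither count is relied on. Leaving those 2 fits aside, Hoxc9 passed in 8 of 17 alternatives and Hoxa11 in 5 of 16, with a positive difference in each. Among them are the value table that repeats the reported fit and the t-test with its ratio limit, which neither gene could pass. Detection changed little: 27 of 35 probes by the flag, 28 by negative controls and 28 with 2 of 3 flags.

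Of 511 recomputed differences 31 changed sign or became 0, all in genes not called. Hoxb3 was -0.06 with normexp, -0.11 with quantile, -0.07 with loess and -0.12 with array weights. Hoxb5 was -0.06, -0.11 and -0.07 with the first 3 of these, and Hoxc10 was -0.02, -0.06 and 0. Hoxb2 was 0.15 with array weights. With a floor of 1.14 Hoxc5 was 0.06. Hoxd1 was 0 there because all its values, at most 1.12, were set to that floor, and it was 0.01 with the letter block. With 1 array left out the ranges were -0.11 to 0.11 for Hoxb2, -0.12 to 0.13 for Hoxb3, -0.51 to 0.02 for Hoxb4, -0.05 to 0.1 for Hoxb5, -0.25 to 0 for Hoxb13, -0.27 to 0.14 for Hoxc5, -0.03 to 0.13 for Hoxc10, -0.26 to 0.18 for Hoxc13 and -0.24 to 0.03 for Hoxd1. The cause of the other changes was not tested. A slide block was not run, since each slide held 1 array. No paired analysis was run, since the genotypes share no leading letter and only the replicate number 3 (C3 and H3). The letters C and B occur only in deficient and H and I only in wild-type cultures. Whatever the letter stands for therefore cannot be told apart from genotype.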
